A study of Homo sapiens with 6 samples.

Results

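G2/M and mitotic genes encode the proteins that take a cell from the end of DNA replication through chromosome segregation and division. The set described here holds 38 genes chosen by name: mitotic cyclins and kinases, spindle checkpoint and kinetochore proteins, kinesins, spindle assembly factors, and the proliferation genes MKI67 and TOP2A. Of these, 37 had a row among the 45019 rows of the deposited tables, and 36 passed the filter of a mean normalized count of at least 10. KIF23 was not analysed here. NUSAP1 has a row and lay under the filter.

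The libraries were made from total RNA of MDA-MB-468, a breast cancer cell line of the basal-like, triple-negative kind that carries an amplified EGFR gene and has lost RB1 function. One group received the slow nitric oxide donor DETA/NO at 100 µM (the labels print the dose without its micro sign) for 10 days, with replating and fresh compound every 48 h. The other group was left untreated, was also replated every 48 h and was collected on the same day 10. In both groups the cells had 4 h to adhere. The labels name 3 samples in either group. Since DETA/NO replicates 1 and 2 held the same value for every gene and the same column header, they count as 1 library, called the shared DETA/NO library, and n is 2 for DETA/NO and 3 for untreated cells. The labels do not say that replicates came from separate cultures beyond a pooling of dishes within each replicate, so the p-values reflect the variation among these libraries, which may be technical.

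Cyclin B bound to CDK1 drives entry into mitosis, and the kinases PLK1, AURKA and AURKB then build the spindle and attach chromosomes to it. The spindle checkpoint holds back CDC20, the activator of the anaphase-promoting complex (APC/C), until every kinetochore is attached. Once released, the APC/C marks securin and cyclin B for destruction, and the sister chromatids part. Most of these genes are transcribed in G2 under the MuvB complex with B-MYB and FOXM1, which acts at a promoter element called the CHR, together with NF-Y at CCAAT boxes.

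The libraries held 28897422 to 34637343 recovered reads. The set took 0.626% and 0.610% of reads in the shared DETA/NO library and DETA/NO library 3, against 0.639%, 0.646% and 0.611% in the untreated libraries, so that the groups overlapped in the summed level. Of 9 tested marker genes of the labelled line and of receptor status, limma called 5 higher (EGFR, KRT5, KRT6A, VIM and ESR1) and 1 lower (ERBB2). Limma without its trend and robust options called 3 higher, without KRT5 and ESR1 (adjusted p = 0.0689 and 0.0725). With quantile normalization the log2 fold change of EGFR was 0. KRT17 was not called in the main test, but edgeR and DESeq2 called it higher (log2 fold change 0.32 in both). EGFR stood at 247990 and 245827 normalized counts with DETA/NO, against 226490, 222549 and 217563 in untreated libraries. The basal keratin gene KRT5 had 31969 and 33682, against 26359, 27468 and 29877, while the progesterone receptor gene PGR stood at 0.981 to 5.73 over all libraries. The estrogen receptor gene ESR1 had 925 and 1093, against 832, 846 and 823, and the HER2 gene ERBB2 had 1429 and 1529, against 1837, 1830 and 1981. Of 7 fibroblast, 7 immune and 5 endothelial marker genes, 1, 2 and 5 passed the filter. A value of 0 in every library is not read as absence here, since genes that dividing cells use, such as SMC4, MAD1L1 and ANAPC10, were also listed at 0 in every library. Endothelial markers summed to 522 and 577 with DETA/NO, against 368, 367 and 332 untreated, and fibroblast markers to 851 and 845, against 592, 620 and 642. Immune markers summed to 425 and 490, against 923, 973 and 962. The 2 tested immune genes went in opposite directions, with 1 called higher (log2 fold change 1.33) and 1 called lower (-1.15). The ribosomal RNA precursor RNA45S took 0.393% and 0.396% of reads with DETA/NO, against 0.253%, 0.293% and 0.305% untreated, and mitochondrial mRNA 6.80% and 7.17%, against 7.79%, 8.04% and 7.94%. The part of these shifts in the results was not tested.

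DETA/NO did not move the mitotic genes in one direction. At a limma p under 0.05 after Benjamini-Hochberg adjustment, 10 of the 36 tested genes were higher and 13 were lower, and 13 were not called. Of all 16409 tested genes 43.4% were called, 21.7% higher and 21.7% lower. Among genes with a mean normalized count of at least 500, which 35 of the 36 mitotic genes also had, 55.9% were called, 30.0% higher and 25.9% lower. The median log2 fold change of the set was -0.04, beside -0.00016 over all tested genes. Every change was small: 0 of the 36 genes changed by 1.5-fold or more, beside 12.2% of all tested genes and 4.26% of those with a mean of at least 500. The groups did not overlap in 24 of the 36 genes, with DETA/NO above in 11 and below in 13. Of all tested genes 61.2% did not overlap, 30.4% with DETA/NO above and 30.8% below.

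**Figure D1:**
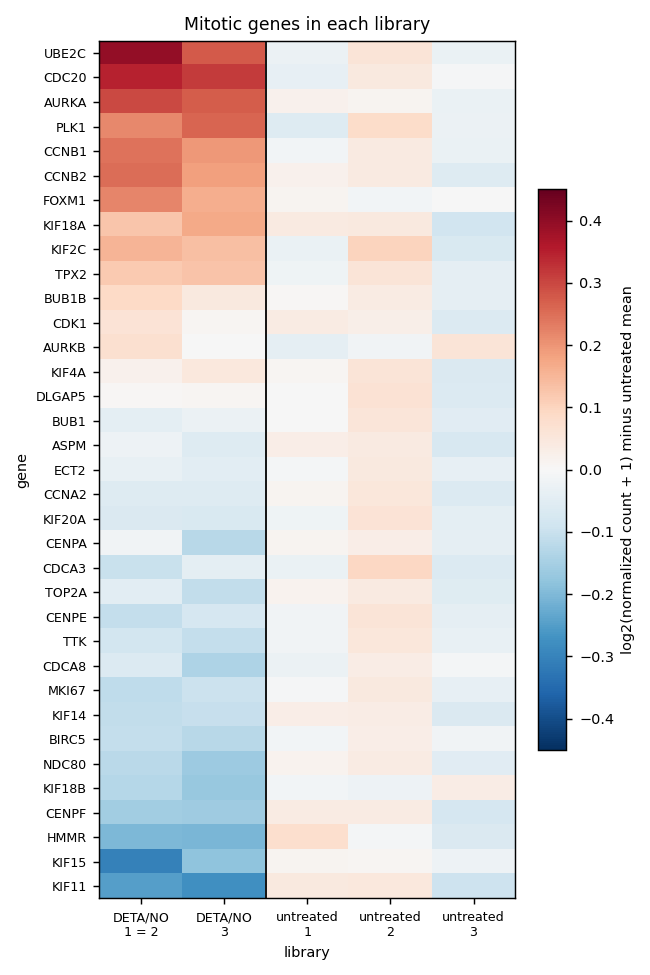
Each row is a mitotic gene with a mean untreated count of at least 500 and each column a library. Colour gives log2(normalized count + 1) minus the untreated mean, and rows run from UBE2C, the highest with DETA/NO, to KIF11, the lowest. Untreated library 2 was the highest of the untreated libraries in 28 of the 35 genes and untreated library 3 the lowest in 29.

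The untreated libraries differed from each other across the set as a whole. Library 2 was the highest of the 3 in 28 of 35 genes, and library 3 the lowest in 29. The median range among untreated libraries was 0.0981 on the log2 scale, which is close to the median absolute fold change of the set, 0.111. The 2 DETA/NO libraries had a median absolute difference of 0.0333. A range over 3 libraries tends to exceed a difference between 2, so these values do not compare the spread of the groups. All 10 higher calls held when any single library was left out, and the number of lower calls was 6 to 15. Omission of DETA/NO library 3 left 6 and that of the shared DETA/NO library 11, while omission of untreated libraries 1, 2 and 3 left 10, 8 and 15.

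Among the regulators of mitotic entry, both B-type cyclins and the transcription factor FOXM1 rose, while CDK1 and cyclin A2 were not called. CCNB1, the main cyclin partner of CDK1 in mitosis (chromosome 5, 69167010 to 69178245, GRCh38), had 6582 and 6355 normalized counts in the shared DETA/NO library and library 3, against 5513, 5717 and 5436 in untreated libraries 1 to 3. No DETA/NO value reached down to an untreated one, and the log2 fold change was 0.22 ± 0.0333 (SE; limma adjusted p = 2.26e-06). CCNB2 (chromosome 15, 59105078 to 59125045) had 2052 and 1958, against 1743, 1771 and 1654 (log2 fold change 0.22 ± 0.0446, limma adjusted p = 0.000156). The pair of B-type cyclins thus changed by the same factor, 1.16-fold each. FOXM1, which drives transcription of many genes in this set (chromosome 12, 2857681 to 2877155), had 2141 and 2059, against 1856, 1825 and 1840 (log2 fold change 0.19 ± 0.042, limma adjusted p = 0.000417). Other genes cover 15.9% of the exon bases of FOXM1, and reads there are uncertain, since the strand setting of the counting is not given in the sources used here. RHNO1, one of these genes, was listed at 0 in every library. The same limit holds for genes with less overlap, such as BUB1B (10.2%), CDCA3 (9.71%) and CCNA2 (9.08%).

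CDK1 had 7468 and 7190 normalized counts with DETA/NO, against 7334, 7282 and 6850 untreated (log2 fold change 0.04, limma adjusted p = 0.432). CCNA2, the cyclin of S phase and early G2, had 2953 and 2948, against 3097, 3178 and 2944 (log2 fold change -0.06, limma adjusted p = 0.235). In both genes the groups overlapped.

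The kinases split. AURKA, which matures centrosomes and activates PLK1 (chromosome 20, 56369389 to 56392337), had 4450 and 4368 normalized counts with DETA/NO, against 3668, 3647 and 3546 untreated (log2 fold change 0.28 ± 0.0348, limma adjusted p = 5.02e-08). PLK1 (chromosome 16, 23677656 to 23690367) had 2839 and 2930, against 2350, 2589 and 2401 (log2 fold change 0.24 ± 0.0418, limma adjusted p = 2.17e-05). For both kinases the groups were apart, and other genes cover 12.5% of the exon bases of PLK1. TTK, the kinase that starts checkpoint signalling at unattached kinetochores, was lower, with 6283 and 6176, against 6571, 6893 and 6489 (log2 fold change -0.09 ± 0.033, limma adjusted p = 0.0211). Omission of untreated library 2 (0.149) or of DETA/NO library 3 (0.130) ended this call. The checkpoint genes BUB1 and BUB1B had log2 fold changes of -0.04 and 0.07 (limma adjusted p = 0.443 and 0.159). BUB1B had both DETA/NO libraries, 3149 and 3053, above the untreated 2968, 3039 and 2876, by a margin within the spread of the untreated group.

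The largest rises of the set were in 2 genes of the APC/C step. CDC20 (chromosome 1, 43358955 to 43363203) had 7800 and 7627 normalized counts with DETA/NO, against 5983, 6319 and 6111 untreated (log2 fold change 0.33 ± 0.0325, limma adjusted p = 6.08e-10). UBE2C, the ubiquitin-conjugating enzyme that starts chains for the APC/C (chromosome 20, 45812576 to 45816957), had 3106 and 2855, against 2317, 2457 and 2310 (log2 fold change 0.34 ± 0.0421, limma adjusted p = 9.47e-08). Each was 1.26-fold higher, with the groups well apart. CDCA3, a trigger of mitotic entry that is itself an APC/C target, had 606 and 630, against 636, 692 and 622, and was not called (limma adjusted p = 0.419).

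**Figure D2:**
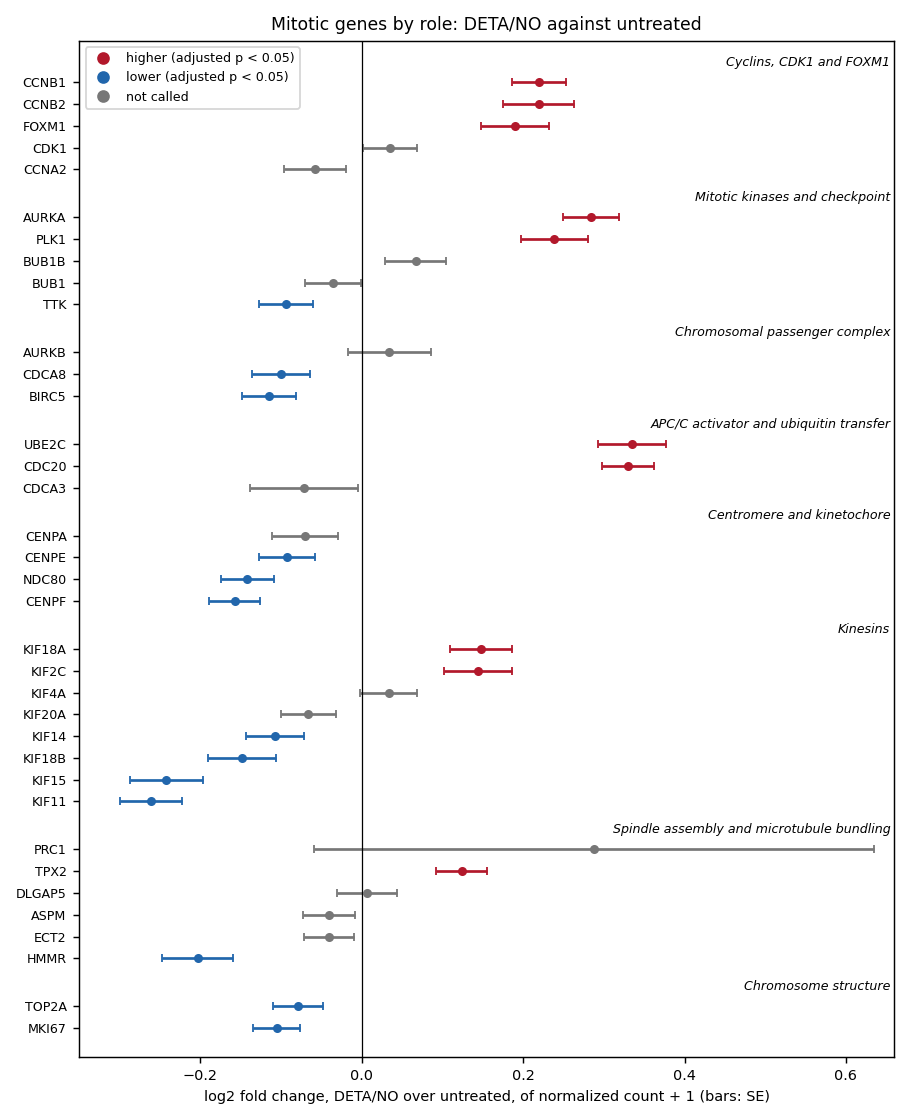
Points give the log2 fold change of DETA/NO over untreated, on the scale of normalized count + 1, with bars for the SE, for the 36 tested genes grouped by role. Values run from -0.26 for KIF11 to 0.34 for UBE2C, the centromere and kinetochore genes all lie below 0, and PRC1, counted at 9.81 to 19.1 per library, has a wide bar.

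Of the 4 centromere and kinetochore genes, 3 fell and CENPA was not called. Of all tested genes 21.7% fell, and 25.9% of those with a mean of at least 500. Among 33 other kinetochore and checkpoint genes, 7 rose and 10 fell. CENPF, a large protein of the outer kinetochore and a common G2 marker (chromosome 1, 214603195 to 214664588), had 20122 and 20046 normalized counts with DETA/NO, against 22988, 22990 and 21275 untreated (log2 fold change -0.16 ± 0.0312, limma adjusted p = 0.000136). NDC80, the microtubule-binding subunit of the kinetochore (chromosome 18, 2571511 to 2616635), had 6758 and 6568, against 7432, 7535 and 7092 (log2 fold change -0.14 ± 0.0328, limma adjusted p = 0.000689). Both genes were below every untreated library, and both calls held without any single library. Limma without trend and robust options called neither CENPF nor NDC80 (adjusted p = 0.0892 and 0.0849). CENPE, the kinetochore kinesin, had a log2 fold change of -0.09 ± 0.0349 (limma adjusted p = 0.0311). Its call was lost on leaving out untreated library 1 (0.0628), untreated library 2 (0.201), the shared DETA/NO library (0.187) or DETA/NO library 3 (0.0516). CENPA, the centromeric histone, was not called (log2 fold change -0.07, limma adjusted p = 0.175), and all 4 genes of the group had negative fold changes.

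In the chromosomal passenger complex, which corrects faulty attachments, the kinase gene AURKB had 1272 and 1209 normalized counts with DETA/NO, against 1176, 1197 and 1262 untreated, and was not called (limma adjusted p = 0.630). Its partners BIRC5 (survivin) and CDCA8 (borealin) fell. BIRC5 had 4251 and 4197, against 4529, 4670 and 4522 (log2 fold change -0.11 ± 0.0339, limma adjusted p = 0.00635) and lost its call when DETA/NO library 3 was left out (0.0549). CDCA8 had 3831 and 3626, against 3921, 4089 and 3973 (log2 fold change -0.10 ± 0.0361, limma adjusted p = 0.0250) and lost it when untreated library 2 (0.120) or DETA/NO library 3 (0.320) was left out.

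Kinesins, the microtubule motors of the spindle, held changes of both signs: of 8 tested, 2 rose and 4 fell. That is 75% called, beside 43.4% of all tested genes and 55.9% of those with a mean of at least 500. KIF11, the motor Eg5 that pushes the spindle poles apart, showed the largest fall of the set (chromosome 10, 92593286 to 92655395). It had 4099 and 4018 normalized counts with DETA/NO, against 5017, 5030 and 4558 untreated (log2 fold change -0.26 ± 0.0386, limma adjusted p = 2.69e-06). KIF15, a motor that can keep the poles apart when Eg5 is inhibited (chromosome 3, 44761717 to 44873376), had 1537 and 1675, against 1915, 1910 and 1869 (log2 fold change -0.24 ± 0.0453, limma adjusted p = 5.21e-05). The motors with this shared function were thus the pair with the largest falls, and every DETA/NO value lay below every untreated one. KIF18B, a motor that shortens astral microtubules, had 1932 and 1878, against 2093, 2081 and 2162 (log2 fold change -0.15 ± 0.0417, limma adjusted p = 0.00426; 0.0548 without DETA/NO library 3). KIF14, needed for cytokinesis, had a log2 fold change of -0.11 (limma adjusted p = 0.0153). Leaving out untreated library 1, untreated library 2, the shared DETA/NO library or DETA/NO library 3 gave KIF14 an adjusted p of 0.0917, 0.0858, 0.0724 or 0.0543.

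KIF2C, which removes tubulin from microtubule ends at centromeres, had 3299 and 3254 normalized counts with DETA/NO, against 2902, 3175 and 2830 untreated (log2 fold change 0.14 ± 0.0418, limma adjusted p = 0.00615). KIF18A, which dampens chromosome movements at the metaphase plate, had 4519 and 4671, against 4263, 4280 and 3907 (log2 fold change 0.15 ± 0.0382, limma adjusted p = 0.00222). Both rose with the groups apart, and for KIF2C untreated library 2 lay close under the DETA/NO values. KIF4A and KIF20A were not called (log2 fold changes 0.03 and -0.07, limma adjusted p = 0.481 and 0.118). KIF20A had both DETA/NO libraries, 5867 and 5849, below the untreated 6055, 6402 and 5953 and was called once untreated library 3 was left out (0.0207).

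**Figure D3:**
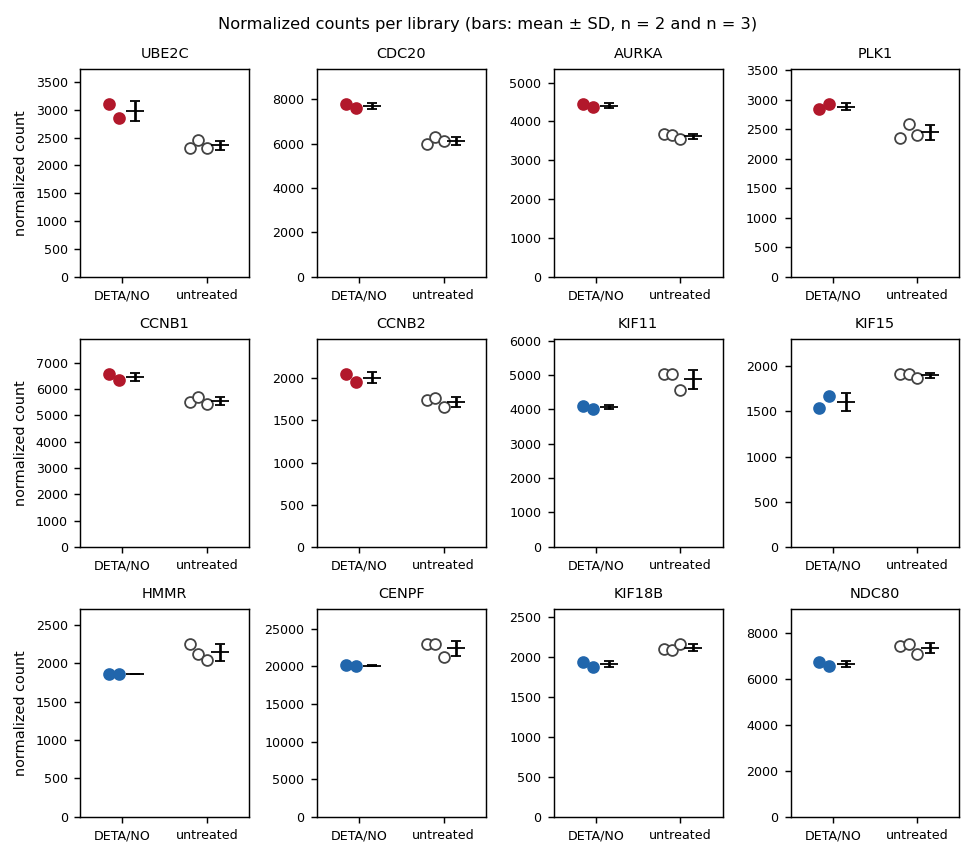
Normalized counts of the 6 genes with the largest rises and the 6 with the largest falls among called genes, in each DETA/NO library (filled) and each untreated library (open), with mean and SD beside them. The axes start at 0. In all 12 genes no DETA/NO library overlaps an untreated one, and UBE2C, at 3106 and 2855 against 2310 to 2457, shows the largest rise. The genes were picked for large changes among called genes, and 61.2% of all tested genes also do not overlap.

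Of the spindle assembly genes, TPX2 rose and HMMR fell. TPX2, which activates AURKA on spindle microtubules, had 9863 and 9939 normalized counts with DETA/NO, against 8962, 9466 and 8846 untreated (log2 fold change 0.12 ± 0.0319, limma adjusted p = 0.0020). HMMR, a centrosome-associated protein that helps to place TPX2, had 1864 and 1857, against 2255, 2129 and 2046 (log2 fold change -0.20 ± 0.044, limma adjusted p = 0.000332). These partners moved in opposite directions, with the groups apart in both. DLGAP5, ASPM and ECT2 had log2 fold changes of 0.01, -0.04 and -0.04 and were not called (limma adjusted p = 0.909, 0.340 and 0.311). ASPM was called once untreated library 3 was left out (0.0268). DLGAP5 bundles spindle fibres, ASPM works at the spindle poles and ECT2 activates RHOA for cytokinesis.

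PRC1 and NUSAP1, both microtubule bundlers, were counted at very low levels. PRC1 had 16.6 and 19.0 normalized counts with DETA/NO, against 19.1, 9.81 and 15.7 untreated, and NUSAP1 had 0 and 0.950, against 0.956, 3.92 and 0.924. In the GENCODE 29 annotation other genes overlap 58.4% of the exon bases of PRC1 and 62.2% of those of NUSAP1, more than for any other gene of the set. PRC1-AS1, AC087721.1 and AC087721.2, which overlap them, were listed at 0 in every library. The part of the overlap in these low values was not tested.

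The proliferation genes were slightly lower. MKI67, which encodes Ki-67, the coat protein of mitotic chromosomes (chromosome 10, 128096659 to 128126385), had 19793 and 20085 normalized counts with DETA/NO, against 21352, 22104 and 20913 untreated (log2 fold change -0.11 ± 0.0288, limma adjusted p = 0.00335). TOP2A, the topoisomerase that untangles sister chromatids, had 16704 and 15988, against 17448, 17742 and 16603 (log2 fold change -0.08 ± 0.0309, limma adjusted p = 0.0395). The groups were apart for MKI67 and overlapped for TOP2A, which was the weakest of the 23 calls. Without untreated libraries 1 and 2 the adjusted p of TOP2A was 0.164 and 0.193, and without DETA/NO library 3 it was 0.355. In bulk RNA, a smaller share of cells in G2 and mitosis and less RNA per cell cannot be told apart.

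Calls depended on the test, and not only in the genes with the smallest changes. In limma without trend and robust options, HMMR (log2 fold change -0.20) lost its call (adjusted p = 0.0568), while FOXM1 (0.19) kept it. The edgeR quasi-likelihood test on recovered reads called 10 higher and 12 lower, without TOP2A, where it called 42.7% of all genes. DESeq2 called 10 higher and 8 lower, without TOP2A, TTK, CENPE, KIF14 and CDCA8, where it called 32.6% of all genes. Limma without trend and robust options called 7 higher and 2 lower (KIF11 and KIF15), without KIF2C, KIF18A and TPX2 among the higher genes, where it called 2262 of all tested genes higher and 2497 lower.

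Per kilobase of annotated exon, CDC20 had the highest level of the set, at 3785 ± 59.9 normalized counts with DETA/NO (SD, n = 2) and 3011 ± 83.2 untreated (SD, n = 3). TOP2A followed with 2539 ± 78.6 and 2682 ± 91.9, and TPX2 with 2746 ± 15.0 and 2522 ± 91.4. These were the levels of the second and the third gene in untreated cells, and their order was the opposite with DETA/NO. At the low end, FOXM1 stood at 429 ± 11.8 and 376 ± 3.20, KIF15 at 304 ± 18.5 and 359 ± 4.82, and CDCA3 at 109 ± 2.94 and 115 ± 6.53 per kilobase. Below these were PRC1, at 3.22 ± 0.303 with DETA/NO and 2.69 ± 0.852 untreated, and NUSAP1, at 0.165 ± 0.234 and 0.673 ± 0.599. The lengths join all annotated exons of a gene, so that these levels depend on which transcripts the cells use.

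The exon lengths of the genes called in either direction overlapped, and their difference was not tested. The exon length was 1.29 to 4.90 kb with a median of 3.27 kb in the 10 higher genes, and 2.47 to 12.8 kb with a median of 4.86 kb in the 13 lower genes. Among all tested genes with a mean count of at least 500, the medians were 5.49 kb in higher and 6.14 kb in lower genes. Across the 35 mitotic genes with such counts, Spearman's rho of the log2 fold change with exon length was -0.438, and across 8267 tested genes with such counts it was -0.058. These are correlations across genes measured in the same libraries and are given as a description.

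Promoter windows of 300 bases, from 250 before to 50 after the RefSeq gene start (GRCh38.p14), were present for 31 of the 37 genes. In 27 of the 31, the last 30 bases of the window lay in a GENCODE 29 transcript of the gene. The RefSeq start can differ from the GENCODE 29 start used for the gene coordinates: the KIF11 window ends before that start, and the PLK1 window lies wholly after it. There was no entry for FOXM1, AURKA, TTK, BIRC5, UBE2C and TPX2. The windows were searched on both strands for the CHR letters TTTGAA and TTCGAA and for CCAAT; in CDCA8 and MKI67 a match of each kind shares its end base with the other. A CHR match was present in 25 of the 31 promoters (80.6%), against 16.6% of the 27303 promoters in the table, and a CCAAT match in 26 (83.9%), against 35.7%. Both were present in 22 (71.0%), against 6.58%. By direction, 4 of 6 higher genes and 10 of 11 lower genes held a CHR match, and 5 of 6 and 8 of 11 a CCAAT match. Both directions thus include genes with and without a match to each of the searched motifs. The median position of the CHR matches was -29 in higher and -25.5 in lower genes, counted in bases from the RefSeq start. A match is a description of letters, not of binding. The 3 higher and the 3 lower genes with the smallest adjusted p among those with a match are shown 5′ to 3′ along the gene, with the matches to either motif on either strand in capitals.
CDC20 (chr1:43358731-43359030, plus strand): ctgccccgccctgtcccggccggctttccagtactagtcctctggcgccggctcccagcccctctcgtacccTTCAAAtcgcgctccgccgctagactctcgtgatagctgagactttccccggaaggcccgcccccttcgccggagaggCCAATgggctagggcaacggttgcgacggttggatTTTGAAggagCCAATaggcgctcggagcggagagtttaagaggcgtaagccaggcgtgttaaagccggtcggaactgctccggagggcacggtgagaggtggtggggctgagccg
CCNB1 (chr5:69166900-69167199, plus strand): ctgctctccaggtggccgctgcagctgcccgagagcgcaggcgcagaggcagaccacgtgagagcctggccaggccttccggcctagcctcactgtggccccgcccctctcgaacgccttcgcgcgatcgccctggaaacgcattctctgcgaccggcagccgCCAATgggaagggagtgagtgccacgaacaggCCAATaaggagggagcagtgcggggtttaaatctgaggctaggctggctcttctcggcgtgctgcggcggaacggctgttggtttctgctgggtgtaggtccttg
PLK1 (chr16:23678639-23678938, plus strand): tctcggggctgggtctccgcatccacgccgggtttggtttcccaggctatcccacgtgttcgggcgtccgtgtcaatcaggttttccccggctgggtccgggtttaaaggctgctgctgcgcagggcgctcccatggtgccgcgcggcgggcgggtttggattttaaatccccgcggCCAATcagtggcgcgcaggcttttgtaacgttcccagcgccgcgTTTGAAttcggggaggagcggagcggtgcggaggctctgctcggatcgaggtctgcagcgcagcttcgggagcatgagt
KIF11 (chr10:92592880-92593179, plus strand): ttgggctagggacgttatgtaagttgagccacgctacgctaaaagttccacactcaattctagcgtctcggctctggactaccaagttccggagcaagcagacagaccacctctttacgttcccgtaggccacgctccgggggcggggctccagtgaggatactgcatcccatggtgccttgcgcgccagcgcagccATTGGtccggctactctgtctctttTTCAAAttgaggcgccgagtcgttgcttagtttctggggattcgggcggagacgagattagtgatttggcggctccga
KIF15 (chr3:44761544-44761843, plus strand): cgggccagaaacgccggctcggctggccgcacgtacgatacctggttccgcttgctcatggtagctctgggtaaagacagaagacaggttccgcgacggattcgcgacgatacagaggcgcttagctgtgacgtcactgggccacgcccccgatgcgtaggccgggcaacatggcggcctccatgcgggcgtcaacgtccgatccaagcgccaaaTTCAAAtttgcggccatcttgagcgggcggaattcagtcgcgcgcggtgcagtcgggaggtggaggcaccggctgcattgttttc
CENPF (chr1:214602945-214603244, plus strand): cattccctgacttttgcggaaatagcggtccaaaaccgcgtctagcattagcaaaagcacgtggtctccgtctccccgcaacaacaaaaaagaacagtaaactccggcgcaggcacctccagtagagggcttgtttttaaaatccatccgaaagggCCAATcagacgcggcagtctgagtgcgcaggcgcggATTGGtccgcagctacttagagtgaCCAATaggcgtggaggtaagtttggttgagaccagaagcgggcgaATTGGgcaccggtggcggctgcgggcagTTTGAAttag
CDC20 and PLK1, which rose, and KIF11 and CENPF, which fell, hold both motifs. CCNB1 holds 2 CCAAT boxes and no match to TTTGAA or TTCGAA, the only CHR letters searched. KIF15 holds a CHR match and no CCAAT box. CENPF has its CHR match after the RefSeq start and 4 CCAAT boxes.

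**Figure D4:**
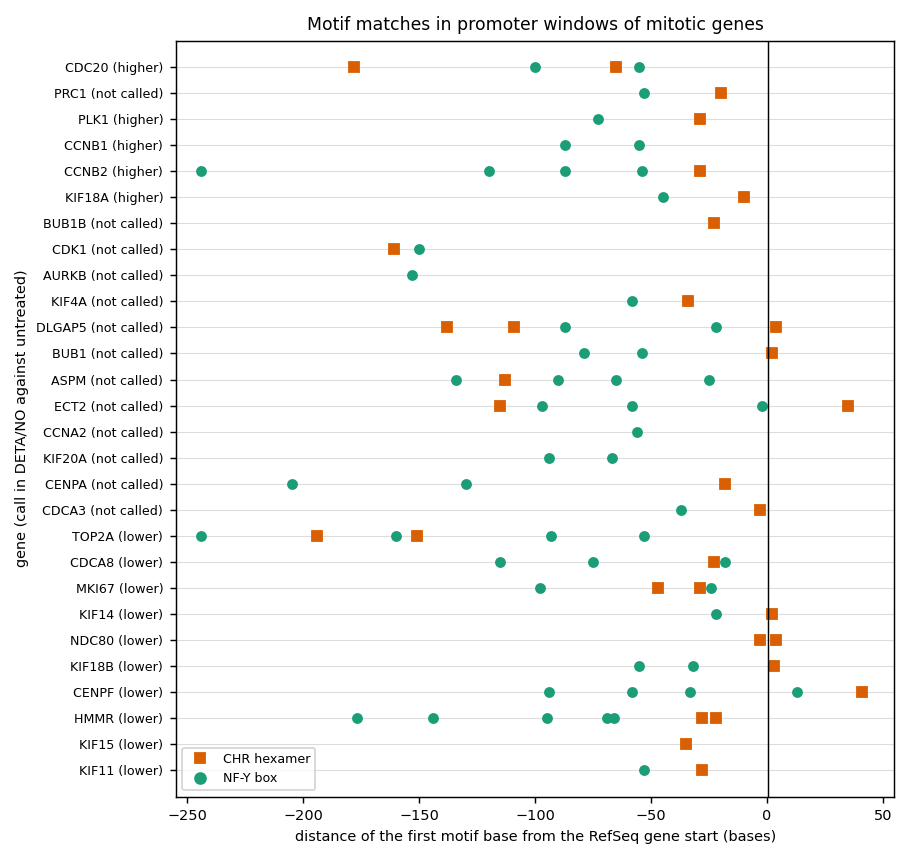
Positions of CHR hexamers (squares) and NF-Y boxes (circles, CCAAT) relative to the RefSeq gene start, for the 28 tested genes with at least 1 match, ordered from the largest rise to the largest fall. Squares cluster close to the start, with median positions of -29 in higher and -25.5 in lower genes, and circles lie mostly upstream of them.

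Of 17 tested MuvB, MYB, E2F and pocket protein genes, which regulate transcription of many mitotic genes, 5 rose, 4 fell and 8 were not called. The called share was 52.9%, beside 43.4% of all tested genes. MYBL2, which encodes B-MYB, had 8204 and 8040 normalized counts with DETA/NO, against 5847, 5858 and 5857 untreated (log2 fold change 0.47, limma adjusted p = 6.26e-14), and its fold change exceeded that of every tested gene of the set. LIN9, a core subunit of MuvB, rose by 0.26 and E2F4 by 0.30 on the log2 scale, while the MuvB subunit RBBP4 and the pocket protein gene RBL2 fell by 0.19 and 0.18. E2F1 lay just over the threshold (log2 fold change -0.10, limma adjusted p = 0.05002; 0.0149 without untreated library 1) and was not called, nor was RBL1 (0.07, limma adjusted p = 0.182). E2F1 was called lower in further settings, such as limma with upper-quartile scaling (adjusted p = 0.0182) or quantile normalization (0.0204). RB1 was not called by DESeq2 (adjusted p = 0.124) or by limma without trend and robust options (0.0722). In the main limma test RB1 was called lower (adjusted p = 0.0218), at 87.5 and 67.4 with DETA/NO, against 97.5, 105 and 112 untreated. Leaving out untreated library 2, untreated library 3 or DETA/NO library 3 ended that call (0.0525, 0.0615 and 0.302).

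Outside the set, 130 further mitotic genes in 7 lists had a row. Of the 120 tested, 28 rose, 27 fell and 65 were not called, 45.8% called beside 43.4% of all genes, with a median log2 fold change of -0.02. Among G2/M entry regulators, 5 of 16 rose and 6 fell, 68.8% called beside 43.4% of all genes. The phosphatase gene CDC25B and the CDK subunit gene CKS1B rose by 0.33 and 0.30 on the log2 scale, while WEE1, the kinase that inhibits CDK1, fell by 0.55, LMNB1 (lamin B1) by 0.36 and ENSA by 0.19. WEE1 had 4711 and 5118 normalized counts with DETA/NO, against 7278, 7286 and 6979 untreated, which was the largest fall in the 7 lists. When the shared DETA/NO library was left out, the number of higher entry regulators was 3.

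Of 33 other kinetochore and checkpoint genes, 7 rose and 10 fell, 51.5% called beside 43.4% of all genes. KNTC1, NSL1 and NUF2, the partner of NDC80, fell by 0.37, 0.31 and 0.25 on the log2 scale, and TRIP13, ZWILCH and SKA3 rose by 0.30, 0.35 and 0.24. Of 16 APC/C genes, 3 rose, 2 fell and 11 were not called, 31.2% called beside 43.4% of all genes. UBE2S, which extends the chains that UBE2C starts, had 1675 and 1589 normalized counts with DETA/NO, against 988, 1007 and 1091 untreated (log2 fold change 0.67, limma adjusted p = 4.23e-12), the largest rise in the 7 lists, and ANAPC1 rose by 0.25. The APC/C subunit genes ANAPC4 and ANAPC16 each fell by 0.15, and FZR1, the other activator, was not called (log2 fold change -0.08, limma adjusted p = 0.352).

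Of 24 other spindle and centrosome genes, 7 rose and 4 fell, 45.8% called beside 43.4% of all tested genes. NEK2 and CKAP5 were higher by 0.30 and 0.21 on the log2 scale, and CEP192 was lower by 0.16. Of 16 cohesin, separase and shugoshin genes, 3 rose and 2 fell, 31.2% called. PTTG1, which encodes securin, and WAPL rose by 0.23 and 0.20, and STAG1 fell by 0.19. The count of lower genes in that list was 4 with upper-quartile scaling, 5 with quantile normalization, and 1 without untreated library 1, untreated library 2 or the shared DETA/NO library. Of 8 cytokinesis genes, 2 rose (25% called), CEP55 by 0.25 and CIT by 0.20, and the other 6 were not called. The number of lower cytokinesis genes was 2 with upper-quartile scaling and 3 with quantile normalization. Of 7 condensin genes, 1 rose and 3 fell (57.1% called), none by more than 0.15 on the log2 scale. Omission of untreated library 2 or DETA/NO library 3 left 0 lower condensin genes in limma, and omission of untreated library 1 or the shared DETA/NO library left 1. The number of higher condensin genes was 0 on omission of DETA/NO library 3 and 2 on omission of untreated library 3.

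**Figure D5:**
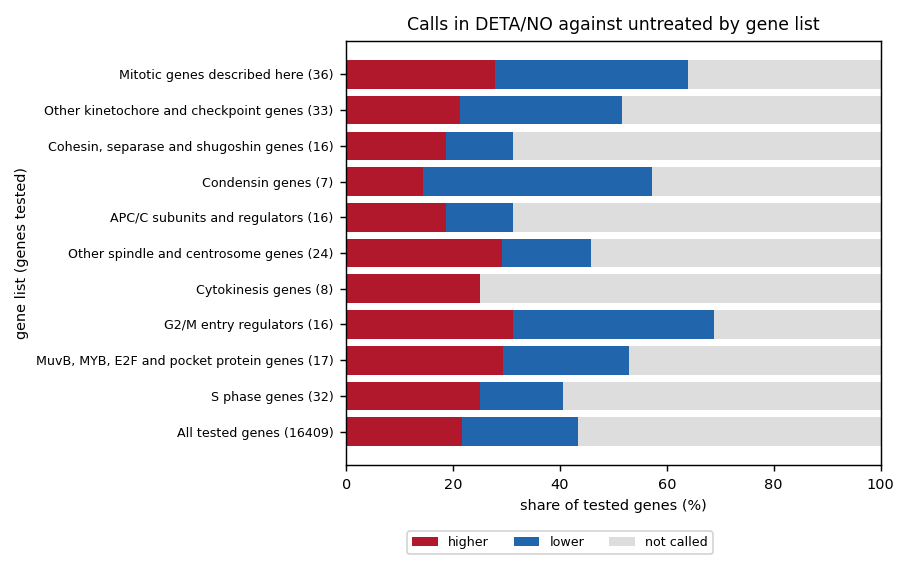
Bars give the share of tested genes called higher, called lower or not called by limma in each list, with the number tested in brackets and all 16409 tested genes at the bottom. The mitotic genes described here have 10 higher and 13 lower of 36, and all tested genes have 21.7% in each direction.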

How the data were processed

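The submitters' processing notes name TopHat2 2.1.1 and Bowtie2 2.5.0.0 (alignment tools), featureCounts 2.0.3 from Subread (a read counter) and DESeq2 1.38.3, and the build GRCh38; the annotation and strand setting are not given in the sources used here. The deposited values are normalized read counts (signal), 1 per gene and library. Dividing each library by 1 factor turned 100% of its values into whole reads (tolerance 0.01), which gave the recovered reads. Such scaling shows relative, not absolute, amounts of RNA.

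Groups came from the sample titles. Row names that had turned into dates, 27 per library with 0.246% of reads, stayed in the tests. Values were tested as log2(value + 1) over the 16409 genes with a mean of at least 10, using limma 3.58.1 (R 4.3.3) with its trend and robust options. A fold change on this scale understates the change of low genes. Alternatives were edgeR 4.0.16 and DESeq2 1.42.0 on recovered reads, omission of single libraries, a replicate block, and changes of scaling, pseudocount or filter. Tested on simulated counts of 16409 genes for the DETA/NO comparison, limma called 88% of the genes changed 1.5-fold and 100% of those changed 2-fold, and 11 of its 205 calls were false; changes as small as those described were not simulated. The members and lists were chosen with earlier results of these data known. Values are given for every called member, for some others by role, and for up to 3 genes per direction of each list by adjusted p. The background of genes with a mean of at least 500 was chosen after seeing the data. Positions and exon lengths are from GENCODE 29, promoters from RefSeq. Python 3.11.15 was used for other steps.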

Additional observations from a re-analysis of the deposited data

How the results depend on the processing

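The 10 higher calls were unchanged in number under every alternative but limma without trend and robust options, where 7 remained. The 13 lower calls were 2 under that option, 8 in DESeq2 and 12 in edgeR, 14 with upper-quartile scaling and 15 with quantile normalization. Leaving out 1 library gave 6 to 15 lower and 10 to 10 higher calls. Without trend and robust options, 2262 of all genes were higher and 2497 lower, and 16 other mitotic genes were higher and 14 lower. Leaving out 1 library gave 21 to 29 higher and 19 to 29 lower genes among those others, and 2776 to 3573 higher and 2803 to 3504 lower among all genes. Of the uncalled genes, AURKB and DLGAP5 changed sign. The log2 fold change of AURKB was -0.00268 to 0.0708 on leaving out 1 library, lowest without the shared DETA/NO library. That of DLGAP5 was -0.0246 to 0.0384, lowest without untreated library 3, and -0.0132 with upper-quartile scaling and -0.0168 with quantile normalization. The cause was not tested.

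With a replicate block the lower calls were 8 whether the shared DETA/NO library took number 1 or number 2, and the higher calls stayed at 10. Number 2 was chosen after seeing the data, from the column header. Of all genes, 3320 were higher and 3285 lower with number 1, and 3143 and 3178 with number 2, beside 3565 and 3555 without a block. TTK, CENPE, KIF14 and TOP2A lost their calls under both blocks, CDCA8 with number 1 (adjusted p = 0.106) and MKI67 with number 2 (adjusted p = 0.0538). The labels do not say that a number marks a shared day. Deviations of the shared library from its group mean correlated with those of untreated libraries 1, 2 and 3 at 0.0293, 0.00106 and -0.0301 across genes. With 2 DETA/NO libraries, library 3 gives the same values with the opposite sign. Deviations within a group also sum to 0, so these correlations are tied to each other and are given as a description. With n = 2 DETA/NO libraries, the smallest called log2 change was -0.08 (TOP2A).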

Other observations

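CDK inhibitor genes restrain the cyclin-dependent kinases, and of 5 tested 1 rose and 2 fell, 60% called beside 43.4% of all tested genes. CDKN1A, which encodes p21, had 1887 and 2108 normalized counts with DETA/NO, against 1159, 1132 and 1471 untreated (log2 fold change 0.68, limma adjusted p = 0.0402). Leaving out untreated library 1, untreated library 2, the shared DETA/NO library or DETA/NO library 3 ended the call (0.0854, 0.0634, 0.126 and 0.168). CDKN2C, which encodes p18, had 968 and 954, against 1305, 1402 and 1290 (log2 fold change -0.47, limma adjusted p = 7.31e-09). CDKN1C, at 24.4 and 31.3 against 52.6, 40.2 and 56.4, had a log2 fold change of -0.81 (limma adjusted p = 0.00436; 0.0661 without the shared DETA/NO library).

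Of 32 tested S phase genes, 8 rose and 5 fell, 40.6% called beside 43.4% of all tested genes. The number of lower genes was 8 with upper-quartile scaling, and that of higher genes was 3 in limma without trend and robust options. PCNA, the sliding clamp of DNA polymerases, had 11232 and 11483 normalized counts with DETA/NO, against 13125, 13392 and 13262 untreated (log2 fold change -0.22, limma adjusted p = 1.48e-07). The helicase subunit gene MCM6 fell by 0.41 on the log2 scale, while CDC6, which loads that helicase, rose by 0.21.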
